A study of Mus musculus with 59 samples.

Results

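The hypoxia and glycolysis genes are 37 mouse genes, chosen by symbol, that sense oxygen, respond to a lack of it, or carry out and steer glycolysis. All 37 symbols were found among the 55421 genes of a gene table and the 33282 genes of a table of intronic reads, each covering the same 59 tumor libraries. By role they were grouped as 18 genes of oxygen sensing and the hypoxia response, 2 transporters, 14 glycolytic enzymes and 3 regulators of glycolytic flux. All 37 reached a mean of at least 1 normalized count and were tested in the gene table beside the other genes that did, 14487 in all. By their introns 32 were tested, and 21 were tested for the difference between gene level and intron level. A second row with the symbol Aldoa (ENSMUSG00000114515) had a mean of 0.014 and was not tested.

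The libraries came from primary mammary tumors of B6.FVB-Tg(MMTV-PyVT)634Mul/LellJ mice (PyMT (+/-)), in which a viral mammary promoter drives the polyoma virus middle T antigen in mammary epithelium and every group carries the transgene. Animals had been given methylparaben (n = 20 libraries), propylparaben (n = 20) or vehicle (n = 19), the parabens being the methyl and propyl esters of para-hydroxybenzoic acid that are used as preservatives. The question of the series is how long exposure to low paraben levels bears on growth and spread of these tumors. Doses, times, ages, dates and the composition of the vehicle are not in the labels used here, and nothing there says that each library comes from its own animal, so p-values cover only the spread from sample to sample, part of which may be technical.

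Cells measure oxygen through prolyl hydroxylases, which need oxygen to mark the alpha subunits of the hypoxia-inducible factors (HIF) for destruction. When oxygen is short the marked form is missing, HIF alpha joins its partner ARNT, and the pair binds short DNA elements with the core ACGTG or GCGTG near its target genes. The targets raise glucose uptake and glycolysis, export lactate and acid, call in blood vessels, brake growth signals and remove mitochondria. Solid mammary tumors often hold poorly perfused zones in which this response runs, and many of them also take up much glucose for glycolysis whatever the oxygen supply.

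The libraries held 1166500 to 2032790 reads on genes (median 1594890) and 307255 to 1059350 reads on introns. All 12 markers of tumor epithelium were detected, with median summed levels of 2876 in methylparaben, 2712 in propylparaben and 2707 in vehicle tumors. A set of 7 libraries stood at the mitosis end of the first principal component of the gene table: propylparaben replicate 1 and vehicle replicates 7, 8, 10, 13, 14 and 19. The component was computed over all tested genes, and mitosis only names its end. The mitosis sum was 1322 in vehicle replicate 13 and 1611 in methylparaben replicate 4, which is outside the set. Fibroblast sums of the 7 ran from 474 to 1517, beside a vehicle median of 1859. Reads aligned to several places were 12.8% to 15.8% in the 7, beside a median of 12.6% over all libraries. Results without the 7 therefore do not bear on mitosis alone. Another 5 libraries had a scaling factor under 0.9: methylparaben replicates 1, 5 and 16 and vehicle replicates 1 and 2. Methylparaben replicate 5 also had the highest adipocyte sum (10525) and skeletal muscle sum (9162) of all libraries and the lowest mitosis sum (465). These libraries are named below where a result changes without them. In pieces of whole tumor, fewer cells of a type and less RNA per cell cannot be told apart.

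Promoter sequences are shown for 4 members because they carry the main contrast: Egln3, Car9 and Ddit4, whose levels varied together between tumors, and Ldha, whose group means were close to each other. Each window runs from 250 bases before to 50 bases after the RefSeq start on the gene's own strand, on GRCm38.p6. The capitals mark every ACGTG and GCGTG and their reverse complements CACGT and CACGC.
Egln3 (chr12:54203825-54204124, minus strand): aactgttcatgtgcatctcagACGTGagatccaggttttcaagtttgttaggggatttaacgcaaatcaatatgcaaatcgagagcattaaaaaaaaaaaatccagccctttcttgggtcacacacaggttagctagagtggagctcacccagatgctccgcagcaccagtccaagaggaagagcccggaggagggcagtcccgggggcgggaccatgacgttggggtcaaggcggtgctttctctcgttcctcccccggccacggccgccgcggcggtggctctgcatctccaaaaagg
Car9 (chr4:43506776-43507075, plus strand): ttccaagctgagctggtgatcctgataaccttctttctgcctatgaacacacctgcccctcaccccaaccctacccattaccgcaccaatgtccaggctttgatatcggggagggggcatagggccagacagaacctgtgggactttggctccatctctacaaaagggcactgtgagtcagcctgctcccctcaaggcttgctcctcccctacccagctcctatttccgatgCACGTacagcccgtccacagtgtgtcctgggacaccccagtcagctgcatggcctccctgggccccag
Ddit4 (chr10:59951721-59952020, minus strand): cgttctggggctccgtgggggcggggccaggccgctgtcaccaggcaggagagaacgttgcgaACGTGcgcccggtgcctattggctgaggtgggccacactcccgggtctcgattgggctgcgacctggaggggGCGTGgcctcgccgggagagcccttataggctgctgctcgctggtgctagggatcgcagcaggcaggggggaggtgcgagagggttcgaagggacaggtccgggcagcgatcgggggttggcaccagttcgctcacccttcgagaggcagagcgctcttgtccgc
Ldha (chr7:46845554-46845853, plus strand): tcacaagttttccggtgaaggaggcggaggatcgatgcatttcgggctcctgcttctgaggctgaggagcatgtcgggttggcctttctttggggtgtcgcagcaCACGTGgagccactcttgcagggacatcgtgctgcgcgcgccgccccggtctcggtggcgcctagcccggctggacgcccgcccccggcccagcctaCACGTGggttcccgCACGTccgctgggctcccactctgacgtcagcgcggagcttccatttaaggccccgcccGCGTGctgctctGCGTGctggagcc

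Egln3 had 1 such element, 229 bases before the start, Car9 had 1, Ddit4 had 2 and Ldha had 7, of which a CACGTG counts as 2 because ACGTG and its reverse complement overlap in it. RefSeq windows were matched for 34 of the 37 genes, Ero1l under the symbol Ero1a; Ndrg1, Bhlhe40 and Bnip3l were not matched. At least 1 element lay in the first listed window of 27 of the 34, or 79.4%, and of 43.8% of 27025 mouse genes. The members' windows were richer in G and C (median 64.8% against 52.7%), and the share over all genes was 59.0% in windows of 55% to 65% GC and 72.3% in windows of 65% to 75% GC. A match is a description of letters and not a binding site, and Vegfa, Mxi1, Hk1, Aldoa and Pkm, with none in the first window, had at least 1 in the window of another start.

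In methylparaben tumors 1 of the 37 genes changed relative to vehicle: Egln3, an oxygen-sensing prolyl hydroxylase, fell. It was the only call among the members in any of the 3 comparisons by limma with Benjamini-Hochberg adjustment over all genes. The background was 191 of 14487 genes called, or 1.32%, of which 99 rose and 92 fell. Values of the other 36 genes lay between log2 -0.69 (Car9) and 0.41 (Hk2). Of the 37, 28 stood below 0 and 9 above it, with a median of -0.093, beside a median of 0.0053 over all genes. An unadjusted p under 0.05 was found for 12 of 37 members, 10 lower and 2 higher in methylparaben (32.4%), and for 22.1% of all genes.

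Propylparaben tumors gave no call among the 37 against vehicle, at a background of 4 calls in 14487 genes (0.0276%). Values ran from log2 -0.81 (Vegfa) to 0.18 (Hk2), 28 below 0 and 9 above, with a median of -0.18 beside -0.00051 over all genes. The smallest adjusted p was 0.0774, for Pgam1. An unadjusted p under 0.05 was found for 14 of 37 members, all lower in propylparaben (37.8%), and for 18.4% of all genes. DESeq2 on the reads recovered from the values called Higd1a, Pgam1 and Vegfa here, and edgeR called none.

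By role the medians differed, a difference that was not tested. Over the 18 genes of oxygen sensing and the hypoxia response the median was -0.19 in methylparaben and -0.27 in propylparaben, with 14 and 15 genes below 0. Over the 14 glycolytic enzymes it was -0.067 and -0.048, with 10 and 9 below 0. Both transporters and 2 of the 3 flux regulators were below 0 in either paraben. The 2 comparisons share the vehicle tumors, so their likeness is no repeat of the result. Without the 7 libraries at the mitosis end the median over the 37 genes was 0.041 in methylparaben and -0.028 in propylparaben.

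**Figure D1:**
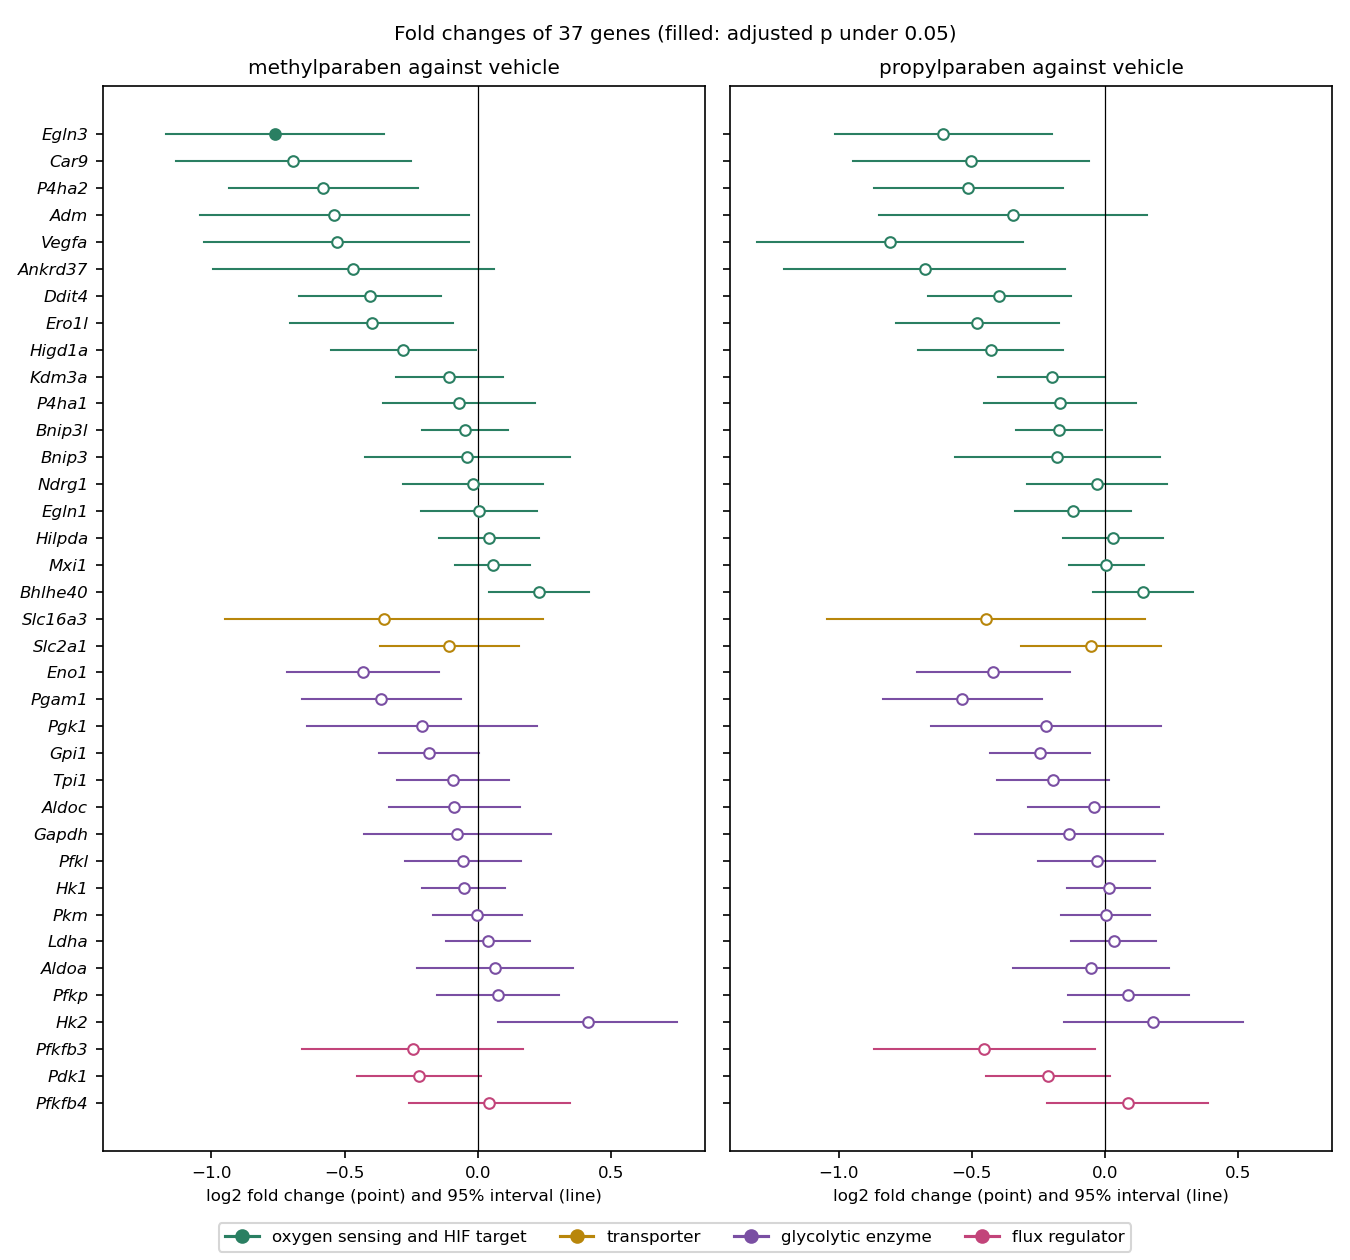
Log2 fold changes of the 37 genes in methylparaben (left) and propylparaben (right) against vehicle, with 95% intervals, colored by role; a filled point has an adjusted p under 0.05. The 1 filled point is Egln3 in methylparaben at -0.76, and Hk2 lies farthest right in both panels at 0.41 and 0.18.

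The oxygen sensors are the prolyl hydroxylases Egln1, the main sensor of most cells, and Egln3, which is itself raised by HIF and closes a feedback loop. Egln3 (ENSMUSG00000035105, chromosome 12, 54178981 to 54203860) held 32.2, 48.7 and 133 normalized counts in the lowest, median and highest methylparaben tumor, 34.1, 48.9 and 169.9 in propylparaben tumors and 39.4, 88.6 and 239.5 in vehicle tumors. Means were 54.9 ± 22.4 in methylparaben (SD, n = 20), 64.5 ± 35.3 in propylparaben (n = 20) and 104 ± 61.1 in vehicle (n = 19). The ranges overlap, but 19 of 20 methylparaben and 14 of 20 propylparaben tumors lay below the vehicle median. Egln3 fell in methylparaben by 0.76 ± 0.20 on the log2 scale (limma adjusted p = 0.0456); in propylparaben the difference was -0.61 ± 0.20 (adjusted p = 0.113) and did not pass.

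The Egln3 call changed with which libraries were in the fit. The 6 vehicle libraries at the mitosis end ranged from 105 to 239.5, and the other 13 vehicle libraries from 39.4 to 151. Without the 7 libraries the difference was -0.34 (adjusted p = 0.844), and without the 5 of low scaling factor -0.75 (adjusted p = 0.105). With 1 library left out at a time it ran from -0.83 to -0.68 with adjusted p from 0.0170 to 0.0952. The call was lost in 23 of 59 such fits: those without methylparaben replicates 2, 3, 5, 6, 7, 8, 10, 11, 13, 14, 15, 17 and 18 or vehicle replicates 1, 2, 7, 8, 10, 13, 14, 16, 18 and 19, with values of -0.81 to -0.68. The count tests kept it, with log2 -0.92 (edgeR adjusted p = 0.0139) and -0.91 (DESeq2 adjusted p = 0.0063).

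Egln1 (ENSMUSG00000031987) stood at 29.3, 35.4 and 88.3 normalized counts in methylparaben, 21.6, 34.9 and 44 in propylparaben and 23.0, 38.6 and 56.6 in vehicle tumors. Its means were 39.5 ± 15.4 (n = 20), 35 ± 6.89 (n = 20) and 38.3 ± 8.45 (n = 19) in that order of groups. The difference from vehicle was 0.0051 ± 0.11 in methylparaben (limma adjusted p = 0.985, 95% interval -0.21 to 0.22) and -0.12 ± 0.11 in propylparaben (adjusted p = 0.565). The highest tumor of this gene was methylparaben replicate 5, the library rich in muscle and fat markers, the next was another methylparaben tumor at 76.4, and the groups otherwise overlapped.

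Car9, Vegfa and Adm act outside the cell. Carbonic anhydrase 9 helps to control acidity at the cell surface, vascular endothelial growth factor A calls in vessels, and adrenomedullin widens them. Car9 (ENSMUSG00000028463, chromosome 4, 43506966 to 43513729) held 6.96, 15.8 and 34.2 normalized counts in the lowest, median and highest methylparaben tumor, 7.96, 17.8 and 44 in propylparaben and 9.42, 22.9 and 68.2 in vehicle tumors. Means were 17.3 ± 8.01 (n = 20), 20.6 ± 10.8 (n = 20) and 30.4 ± 17.2 (n = 19) in these groups. Below the vehicle median lay 16 of 20 methylparaben and 13 of 20 propylparaben tumors. The difference from vehicle was -0.69 ± 0.22 in methylparaben (limma adjusted p = 0.0712) and -0.50 ± 0.22 in propylparaben (adjusted p = 0.207), neither of which passed. Both count tests called Car9 in methylparaben, with log2 -0.81 (edgeR adjusted p = 0.0345) and -0.80 (DESeq2 adjusted p = 0.0229). So did limma without any 1 of methylparaben replicates 4 and 20 and vehicle replicates 5, 6, 9 and 11 (-0.77 to -0.74, adjusted p from 0.0290 to 0.0498). An antisense gene, Gm12454, overlaps 214 exon bases of Car9 and had a mean of 1.12.

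Vegfa (ENSMUSG00000023951, chromosome 17, 46016993 to 46032369) stood at 16, 26.9 and 108 normalized counts in methylparaben, 12.3, 25.8 and 75.8 in propylparaben and 15.9, 34.6 and 136 in vehicle tumors. Its means were 34.8 ± 21.9 (n = 20), 28.5 ± 16.7 (n = 20) and 57.5 ± 41.2 (n = 19). In each paraben group 15 of 20 tumors lay below the vehicle median, while the lowest tumors of the 3 groups were close to each other. The difference was -0.53 ± 0.25 in methylparaben (limma adjusted p = 0.197) and -0.81 ± 0.25 in propylparaben (adjusted p = 0.0897). Without the 7 libraries at the mitosis end these values were -0.031 and -0.38. Vegfa was called in propylparaben without propylparaben replicate 1 (-0.88, adjusted p = 0.0452), without vehicle replicate 5 (-0.88, adjusted p = 0.0396) and by DESeq2 (adjusted p = 0.0277).

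Adm (ENSMUSG00000030790) held 2.54, 9.12 and 35.8 normalized counts in methylparaben, 3.90, 9.63 and 50.4 in propylparaben and 5.11, 10.9 and 46 in vehicle tumors, with means of 10.5 ± 6.98 (n = 20), 13 ± 11.5 (n = 20) and 17.3 ± 13 (n = 19). A few high tumors set these means apart, and the medians differed less. The difference was -0.54 ± 0.25 in methylparaben (limma adjusted p = 0.195) and -0.35 ± 0.25 in propylparaben (adjusted p = 0.468). Without the 7 libraries at the mitosis end it was -0.067 and 0.030.

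**Figure D2:**
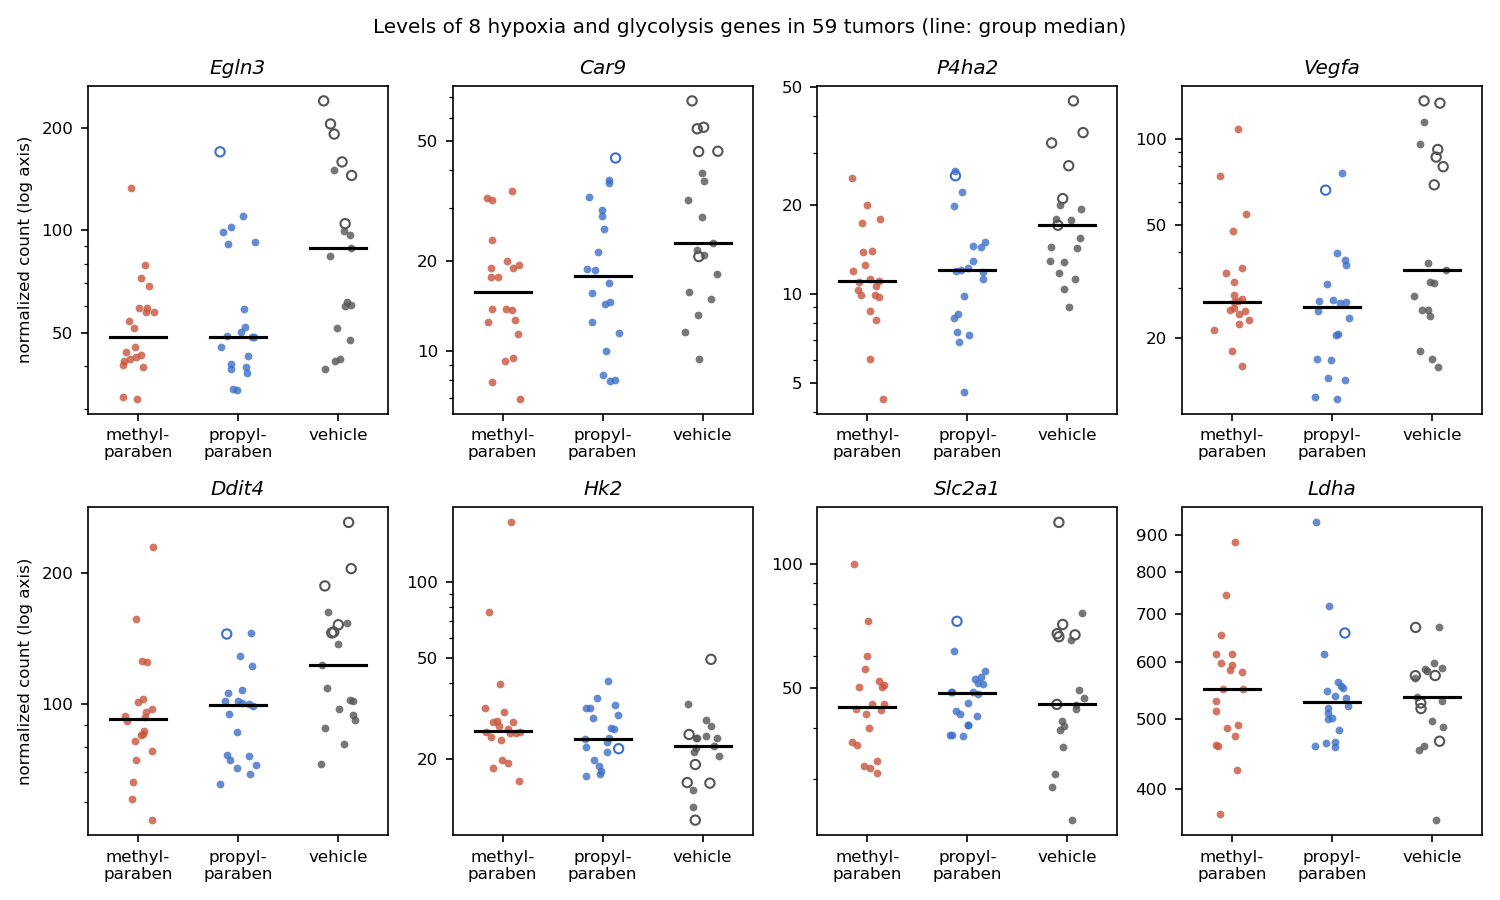
Normalized counts of 8 genes in each tumor (log axis) for methylparaben, propylparaben and vehicle, with the group median as a line and the 7 libraries at the mitosis end of the first principal component as open circles. The vehicle groups of Egln3, Car9, P4ha2, Vegfa and Ddit4 extend higher than the paraben groups, to 239.5 for Egln3 and 260.5 for Ddit4, while Ldha covers 370.2 to 879.8 in methylparaben and 363 to 670.4 in vehicle.

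P4ha1, P4ha2 and Ero1l serve protein folding: the first pair encodes the catalytic subunits of collagen prolyl hydroxylase, which also uses oxygen, and Ero1l makes disulfide bonds in the endoplasmic reticulum. P4ha2 (ENSMUSG00000018906, chromosome 11, 54100095 to 54131665) held 4.43, 11 and 24.7 normalized counts in methylparaben, 4.65, 12 and 26 in propylparaben and 9.01, 17.1 and 44.9 in vehicle tumors, with means of 12.2 ± 4.78 (n = 20), 13.1 ± 5.99 (n = 20) and 19.2 ± 9.44 (n = 19). In each paraben group 16 of 20 tumors lay below the vehicle median. The difference was -0.58 ± 0.18 in methylparaben (limma adjusted p = 0.0618) and -0.51 ± 0.18 in propylparaben (adjusted p = 0.118). P4ha2 was called in methylparaben by edgeR (log2 -0.66, adjusted p = 0.0367) and by DESeq2 (-0.65, adjusted p = 0.0266). By limma it was called without any 1 of methylparaben replicates 4 and 20 and vehicle replicates 5, 9, 11, 15 and 17 (-0.64 to -0.58, adjusted p from 0.0391 to 0.0485). P4ha1 differed by -0.072 in methylparaben and -0.17 in propylparaben (limma adjusted p = 0.811 and 0.537).

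Ero1l (ENSMUSG00000021831) stood at 18.9, 27.6 and 74.5 normalized counts in methylparaben, 15.9, 25 and 53.7 in propylparaben and 22.6, 34.6 and 76.0 in vehicle tumors, with means of 29.2 ± 12.1 (n = 20), 27.6 ± 9.81 (n = 20) and 40.1 ± 17.4 (n = 19). Below the vehicle median were 18 of 20 methylparaben and 17 of 20 propylparaben tumors, though the ranges overlap almost in full. The difference was -0.40 ± 0.15 in methylparaben (limma adjusted p = 0.114) and -0.48 ± 0.15 in propylparaben (adjusted p = 0.0991). It was called without methylparaben replicate 20 in methylparaben (-0.47, adjusted p = 0.0495) and without propylparaben replicate 1 in propylparaben (-0.53, adjusted p = 0.0452).

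Ddit4 (REDD1) holds back the growth kinase complex mTORC1 when oxygen is low. Ddit4 (ENSMUSG00000020108, chromosome 10, 59949669 to 59951834) held 54.4, 92.7 and 228 normalized counts in methylparaben, 65.7, 99.7 and 145 in propylparaben and 73.2, 123 and 260.5 in vehicle tumors, with means of 99.4 ± 38.3 (n = 20), 97.4 ± 24.1 (n = 20) and 132 ± 48.0 (n = 19). Below the vehicle median were 16 of 20 methylparaben and 17 of 20 propylparaben tumors. The difference was -0.40 ± 0.13 in methylparaben (limma adjusted p = 0.0776) and -0.40 ± 0.13 in propylparaben (adjusted p = 0.113). It was called in methylparaben without methylparaben replicate 20 (-0.47, adjusted p = 0.0358), without vehicle replicate 5 (-0.45, adjusted p = 0.0341) and without vehicle replicate 11 (-0.43, adjusted p = 0.0495).

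The regulators of transcription and stress among the members gave no call. Bhlhe40, a repressor that links hypoxia to the clock, was the member of this class with a positive value of some size: 0.23 ± 0.093 in methylparaben (limma adjusted p = 0.138) and 0.14 ± 0.093 in propylparaben (adjusted p = 0.420). In each paraben group 17 of 20 tumors lay above its vehicle median, with group medians of 108 in methylparaben, 101 in propylparaben and 79.1 normalized counts in vehicle. Kdm3a, a histone demethylase, differed by -0.11 and -0.20 in methylparaben and propylparaben, Mxi1, an antagonist of MYC, by 0.055 and 0.0042, and Ndrg1, a stress-response gene, by -0.019 and -0.030. Ankrd37, a HIF target of little known function, differed by -0.47 ± 0.26 in methylparaben (limma adjusted p = 0.292) and -0.68 ± 0.26 in propylparaben (adjusted p = 0.161). Its level was low, with medians of 1.41, 1.29 and 2.25 in methylparaben, propylparaben and vehicle, and it shares 57 exon bases with Ufsp2 on the other strand, which had a mean of 53.7 against its own 2.22, so its reads may be mixed.

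Members that act on mitochondria and lipid droplets were Bnip3 and Bnip3l, receptors for mitophagy, Higd1a, which supports the respiratory chain, and Hilpda, which blocks the breakdown of stored fat. Higd1a (ENSMUSG00000038412) held 7.75, 16.7 and 39.7 normalized counts in methylparaben, 10.8, 15.8 and 25.6 in propylparaben and 12.5, 20.9 and 38.2 in vehicle tumors, with means of 19.1 ± 7.33 (n = 20), 16.5 ± 3.91 (n = 20) and 23.3 ± 7.87 (n = 19). Its difference was -0.28 ± 0.14 in methylparaben (limma adjusted p = 0.214) and -0.43 ± 0.14 in propylparaben (adjusted p = 0.0991), where 17 of 20 tumors lay below the vehicle median. Without vehicle replicate 5 limma called it in propylparaben (-0.46, adjusted p = 0.0482), and so did DESeq2 on all tumors (-0.48, adjusted p = 0.0491).

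Bnip3 (ENSMUSG00000078566) stood at 19.0, 26.5 and 196 normalized counts in methylparaben, 15.2, 27.2 and 62.0 in propylparaben and 14.2, 33.1 and 65.7 in vehicle tumors, with means of 38.2 ± 39.4 (n = 20), 29.7 ± 10.5 (n = 20) and 34.9 ± 14.8 (n = 19). The highest value, 196, was methylparaben replicate 5, and the next highest of all tumors was 81.3 in methylparaben replicate 20. The difference was -0.041 ± 0.19 in methylparaben (limma adjusted p = 0.929) and -0.18 ± 0.19 in propylparaben (adjusted p = 0.639). Bnip3l (ENSMUSG00000022051) held 27.8, 41.4 and 66.3 in methylparaben, 28.4, 38.3 and 47 in propylparaben and 29.3, 42.8 and 59.2 normalized counts in vehicle tumors, with means of 42.0 ± 8.75 (n = 20), 38.0 ± 4.87 (n = 20) and 43.4 ± 8.57 (n = 19). It differed by -0.049 ± 0.081 in methylparaben (limma adjusted p = 0.766) and by -0.17 ± 0.081 in propylparaben (adjusted p = 0.240). Hilpda differed by 0.042 and 0.029 (limma adjusted p = 0.834 and 0.895).

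Slc2a1 (GLUT1) takes up glucose and Slc16a3 (MCT4) exports lactate. Slc2a1 (ENSMUSG00000028645) held 31.1, 45.1 and 100.1 normalized counts in methylparaben, 38.2, 48.6 and 72.7 in propylparaben and 23.8, 45.6 and 127 in vehicle tumors, with means of 47.8 ± 16.1 (n = 20), 48.2 ± 8.49 (n = 20) and 53.4 ± 23.5 (n = 19). The groups overlapped, and the difference was -0.11 ± 0.13 in methylparaben (limma adjusted p = 0.668, 95% interval -0.37 to 0.15) and -0.054 ± 0.13 in propylparaben (adjusted p = 0.859, -0.32 to 0.21). Slc16a3 spanned the widest range of the 35 members counted in every tumor, 36-fold. Its values ran from 0.779 in vehicle replicate 11, which is only a few reads, to 28.1 in methylparaben replicate 20. It differed by -0.35 ± 0.30 and -0.45 ± 0.30 in methylparaben and propylparaben (limma adjusted p = 0.505 and 0.42), and 17 of 20 tumors of each paraben lay below the vehicle median of 4.78.

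Among the glycolytic enzymes the hexokinases, which trap glucose in the cell, gave no call by limma. Hk2 (ENSMUSG00000000628, chromosome 6, 82725025 to 82774454), the inducible isozyme of muscle, fat and many tumors, held 16.5, 25.9 and 172 normalized counts in methylparaben, 17.2, 24.1 and 40.7 in propylparaben and 11.5, 22.6 and 49.6 in vehicle tumors. Its means were 35.6 ± 34.4 (n = 20), 25.7 ± 6.5 (n = 20) and 23.1 ± 8.44 (n = 19), and 16 of 20 methylparaben and 12 of 20 propylparaben tumors lay above the vehicle median. The highest tumor was methylparaben replicate 5, the next 76.0 in methylparaben replicate 20. The difference was 0.41 ± 0.17 in methylparaben (limma adjusted p = 0.138) and 0.18 ± 0.17 in propylparaben (adjusted p = 0.583). DESeq2 called it in methylparaben (0.63, adjusted p = 0.0419) and edgeR did not (0.60, adjusted p = 0.0707). Over all tumors Hk2 had a Spearman correlation of 0.484 with the summed skeletal muscle markers, and with 5 tissue sums as covariates its difference was 0.27 (limma adjusted p = 0.689). Without the 5 libraries of low scaling factor, methylparaben replicate 5 among them, it was 0.27 (adjusted p = 0.293). Hk1, the housekeeping isozyme, differed by -0.054 and 0.013 in methylparaben and propylparaben.

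In the middle of the pathway no member passed. Gpi1, Pfkl, Pfkp, Aldoa, Aldoc and Tpi1, which turn glucose 6-phosphate into a pair of triose phosphates, differed by -0.18 to 0.075 in methylparaben and by -0.25 to 0.087 in propylparaben. The smallest adjusted p among them was 0.234 in methylparaben and 0.152 in propylparaben, both for Gpi1. Gapdh and Pgk1, which harvest the first energy of the pathway, differed by -0.079 and -0.21 in methylparaben and by -0.14 and -0.22 in propylparaben. Gapdh had a mean of 10.9 normalized counts over all tumors, and its near-identical copies are described below. Pgk1 was counted at a median of 2.39 in methylparaben, 1.89 in propylparaben and 3.05 in vehicle tumors. Pgam1 and Eno1, which follow, had the most negative log2 differences of the 14 enzymes in both parabens.

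Pgam1 (ENSMUSG00000011752) held 2.16, 4.62 and 8.05 normalized counts in methylparaben, 2.33, 4.37 and 6.21 in propylparaben and 2.57, 6.26 and 13.5 in vehicle tumors, with means of 4.96 ± 1.90 (n = 20), 4.19 ± 1.38 (n = 20) and 6.70 ± 2.72 (n = 19). All 20 propylparaben tumors and 13 of 20 methylparaben tumors lay below the vehicle median. The difference was -0.36 ± 0.15 in methylparaben (limma adjusted p = 0.142) and -0.54 ± 0.15 in propylparaben (adjusted p = 0.0774). In propylparaben it was called without propylparaben replicate 1 (-0.56, adjusted p = 0.0383), without vehicle replicate 5 (-0.59, adjusted p = 0.0223) and by DESeq2 (-0.65, adjusted p = 0.0349). Eno1 (ENSMUSG00000063524) stood at 11.1, 17.9 and 40.1 in methylparaben, 11.8, 19.5 and 32.6 in propylparaben and 14.6, 26.9 and 53.5 normalized counts in vehicle tumors, with means of 20.2 ± 8.26 (n = 20), 19.7 ± 5.21 (n = 20) and 27.6 ± 10.6 (n = 19). Below its vehicle median were 16 of 20 methylparaben and 18 of 20 propylparaben tumors. Its difference was -0.43 ± 0.14 in methylparaben (limma adjusted p = 0.0794) and -0.42 ± 0.14 in propylparaben (adjusted p = 0.115). Limma called it in methylparaben without methylparaben replicate 1 (-0.48, adjusted p = 0.0450) and without vehicle replicate 5 (-0.47, adjusted p = 0.0355).

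Pkm and Ldha end the pathway by making pyruvate and turning it into lactate. Ldha (ENSMUSG00000063229, chromosome 7, 46841475 to 46855627) held 370.2, 551 and 879.8 normalized counts in methylparaben, 458, 529 and 936 in propylparaben and 363, 537 and 670.4 in vehicle tumors, with means of 559 ± 115 (n = 20), 555 ± 112 (n = 20) and 539.8 ± 75.7 (n = 19). The groups covered each other, and the difference was 0.038 ± 0.079 in methylparaben (limma adjusted p = 0.821, 95% interval -0.12 to 0.20) and 0.032 ± 0.079 in propylparaben (adjusted p = 0.862, -0.13 to 0.19). Pkm (ENSMUSG00000032294) stood at 96.0, 145 and 229 in methylparaben, 103, 149 and 193 in propylparaben and 87.8, 150.3 and 209.6 normalized counts in vehicle tumors, with means of 149.9 ± 31.0 (n = 20), 149 ± 19.8 (n = 20) and 150.2 ± 29.4 (n = 19). Its difference was -0.0025 ± 0.083 in methylparaben (limma adjusted p = 0.991, -0.17 to 0.16) and 0.0017 ± 0.083 in propylparaben (adjusted p = 0.994, -0.16 to 0.17). For both enzymes the intervals leave out changes as large as that of Egln3.

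Counts of several enzymes are uncertain because near-identical copies can take or lend reads. In 11 of the 37 members a stretch of at least 100 bases had a match of at least 95% identity in another annotated gene, and 26 had none. The matched share of the transcript was 94.2% for Bnip3, 88.0% for Gapdh (81 other genes, 77 of them pseudogenes), 85.6% for Eno1, 68.8% for Pgk1, 65.5% for Pkm, 55.0% for Ldha, 54.5% for Gpi1, 43.1% for Pgam1, 34.7% for Bnip3l, 19.3% for Tpi1 and 12.9% for Higd1a. Reads aligned to several places were 11% to 15.8% of a library and were not counted to genes, and their share had a Spearman correlation over 0.3 with the level of 18 of the 37 members. How many of all genes pass that bound was not computed. Egln3, Car9, Vegfa, P4ha2, Ddit4 and Hk2 had no such copy. In this order their Spearman correlations with the share of reads aligned to several places were 0.485, 0.493, 0.469, 0.308, 0.384 and -0.201. Values over 0.3 were therefore not particular to genes with copies. Some enzymes also overlap other genes. Pkm shares 767 exon bases with Gm49759 on the same strand, which had a mean of 2.55 against 149.6 for Pkm. Pfkp shares 748 with Pitrm1 on the opposite strand, which had a mean of 24.8 against 54.7 for Pfkp. What the copies and overlaps add to any difference was not tested.

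Of the regulators of flux, Pfkfb3 and Pfkfb4 set the level of a signal that speeds phosphofructokinase, and Pdk1 keeps pyruvate out of the mitochondria. Pdk1 (ENSMUSG00000006494) held 39.7, 53.4 and 103 normalized counts in methylparaben, 41.4, 52.9 and 90.5 in propylparaben and 34.3, 63.5 and 125 in vehicle tumors, with means of 55.9 ± 13.6 (n = 20), 56.3 ± 13.5 (n = 20) and 67.5 ± 23.3 (n = 19). Below its vehicle median were 17 of 20 methylparaben and 16 of 20 propylparaben tumors, and the difference was -0.22 ± 0.12 in methylparaben (limma adjusted p = 0.247) and -0.21 ± 0.12 in propylparaben (adjusted p = 0.310). Pfkfb3 differed by -0.25 and -0.45 in methylparaben and propylparaben (limma adjusted p = 0.503 and 0.228), with 340.0 normalized counts in methylparaben replicate 5 against at most 77.1 in any other tumor. Pfkfb4 differed by 0.042 and 0.085.

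The 2 esters differ in the length of the alkyl chain, and no member was called between propylparaben and methylparaben tumors. Limma called 0 of 14487 genes (0%) in this comparison, with an unadjusted p under 0.05 for 311 of them and for none of the 37 members, and every adjusted p of a member was 0.9999; edgeR called 21 genes and DESeq2 none, and no member was among them. Of the 37 members 23 lay below 0 and 14 above, with a median of -0.051 beside -0.0073 over all genes. Egln3 differed by 0.15 ± 0.20 (95% interval -0.25 to 0.56), Car9 by 0.19 ± 0.22 (-0.25 to 0.63), Vegfa by -0.28 ± 0.25 (-0.77 to 0.21) and Hk2 by -0.23 ± 0.17 (-0.56 to 0.10). Ldha and Pkm differed by -0.0062 and 0.0043, with intervals of -0.16 to 0.15 and -0.16 to 0.17. A p that misses the threshold does not show that the esters act alike. Doses are not in the labels, so the esters may have been given in unlike amounts.

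Intronic reads come mostly from unspliced RNA and give a second reading of the same genes from other reads of the same libraries. No member was called by its introns in any comparison, as no intron was among 14281 tested (0% in each). At an unadjusted p under 0.05 there were 1895 introns in methylparaben and 1725 in propylparaben against vehicle and 496 in propylparaben against methylparaben. Of 32 members 26 lay below 0 in methylparaben (median -0.19, beside 0.0035 over all introns) and 28 in propylparaben (median -0.32, beside 0.0051). An unadjusted p under 0.05 was found for 11 of 32 in methylparaben, 10 lower and 1 higher (34.4%, beside 13.3% of all introns), and for 10 of 32 in propylparaben, all lower (31.2%, beside 12.1%). The smallest adjusted p was 0.146 in methylparaben and 0.181 in propylparaben.

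Introns of Egln3 held 21.1, 47.9 and 139 normalized counts in the lowest, median and highest methylparaben tumor, 16, 49.9 and 133 in propylparaben and 14.7, 82.9 and 190.0 in vehicle tumors. The difference was -0.79 ± 0.24 in methylparaben (limma adjusted p = 0.149) and -0.75 ± 0.24 in propylparaben (adjusted p = 0.202), close to those of the gene. Introns of Vegfa differed by -0.85 ± 0.33 and -1.11 ± 0.33 in the same order, those of Car9 by -0.67 ± 0.42 and -0.72 ± 0.42, and those of Ero1l by -0.44 ± 0.18 and -0.60 ± 0.18. Hk2 introns had the highest positive value in methylparaben, 0.76 ± 0.22 (limma adjusted p = 0.147), with 18 of 20 tumors above the vehicle median of 9.94, and 0.40 ± 0.22 in propylparaben. P4ha2 introns were few, at medians of 3.78, 3.12 and 4.34 in methylparaben, propylparaben and vehicle, and differed by -0.20 ± 0.36 and -0.091 ± 0.36. For Bnip3 the introns differed between propylparaben and methylparaben by -0.94 ± 0.34 (unadjusted p = 0.00723, limma adjusted p = 1.00), the 1 member below an unadjusted 0.05 there.

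Introns of the enzymes Tpi1, Pgk1 and Pkm and of the transporter Slc2a1 had more negative values than their genes in both parabens, and none was called. Tpi1 introns differed by -0.89 ± 0.36 in methylparaben and -0.80 ± 0.36 in propylparaben, against -0.093 and -0.20 for the gene. Pgk1 introns differed by -0.73 ± 0.24 and -0.68 ± 0.24, Slc2a1 introns by -0.50 ± 0.22 and -0.42 ± 0.22, and Pkm introns by -0.55 ± 0.15 and -0.31 ± 0.15. Pgk1 was too low in the gene table for the test that follows, and the log2 scale understates changes of such low genes. The gene level minus the intron level was tested for 21 members with a mean of at least 10 in both tables, and no member was called, nor any of 6667 genes (0% in each comparison; unadjusted p under 0.05 in 418, 485 and 235 genes for methylparaben against vehicle, propylparaben against vehicle and propylparaben against methylparaben). Pkm had the smallest p, at 0.55 ± 0.15 in methylparaben (limma adjusted p = 0.281) and 0.31 ± 0.15 in propylparaben (adjusted p = 0.671), and Slc2a1 followed with 0.39 ± 0.17 and 0.37 ± 0.17. The median over the 21 was 0.031 in methylparaben and 0.11 in propylparaben, beside -0.0015 and -0.014 over all genes. The gene and intron tables were scaled separately, so a common shift between them is set by that scaling.

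**Figure D3:**
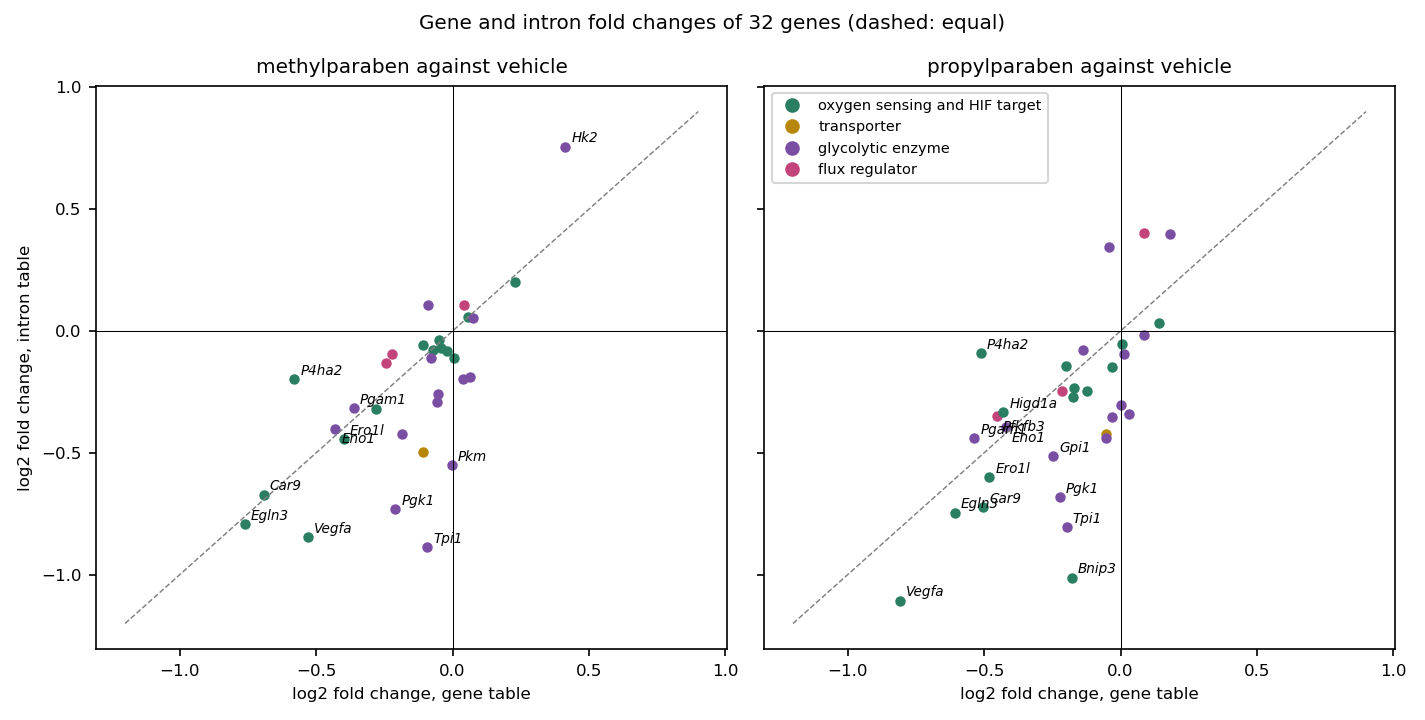
Log2 fold change in the gene table (horizontal) against that in the intron table (vertical) for 32 genes, in methylparaben (left) and propylparaben (right) against vehicle, colored by role, with equality dashed. Egln3, Car9 and Ero1l lie near the dashed line, while Tpi1, Pgk1 and Pkm lie below it in methylparaben, with intron values of -0.89, -0.73 and -0.55.

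Across the 59 tumors the members varied together more often than not. The median Spearman correlation over the 666 pairs of members was 0.252, with 82.3% of pairs above 0 and 76 pairs (11.4%) over 0.5. Over all pairs of 9143 genes with a mean of at least 10 the median was 0.0034, with 50.6% above 0 and 1.40% over 0.5. The pairs share libraries, depth and tissue composition, so this is a description without a p. The highest values were 0.733 for Car9 with Ddit4, 0.728 for Aldoa with Ldha, 0.715 for Egln3 with Ddit4, 0.712 for Car9 with Ero1l and 0.688 for Vegfa with Higd1a.

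Ranked by correlation with the mean of the other members, Tpi1 (0.742), Ero1l (0.712), Vegfa (0.710) and Gpi1 (0.676) came first. Of the 37, 12 were over 0.5, 24 between 0 and 0.5, and Hilpda alone was below 0, at -0.265. Hilpda had its lowest value with Aldoa, -0.489. Egln3 correlated with Car9 and Ddit4 but with the mean of the others only at 0.374, and Ldha stood next to Aldoa and Pfkp in the clustering. The mean of the members, each standardized over tumors, had a median of -0.181 in methylparaben (range -0.707 to 1.60), -0.278 in propylparaben (-0.450 to 0.907) and -0.148 in vehicle tumors (-0.716 to 1.41), so each group held both high and low tumors. It was highest in methylparaben replicate 20, which was also the highest tumor of 10 single members.

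**Figure D4:**
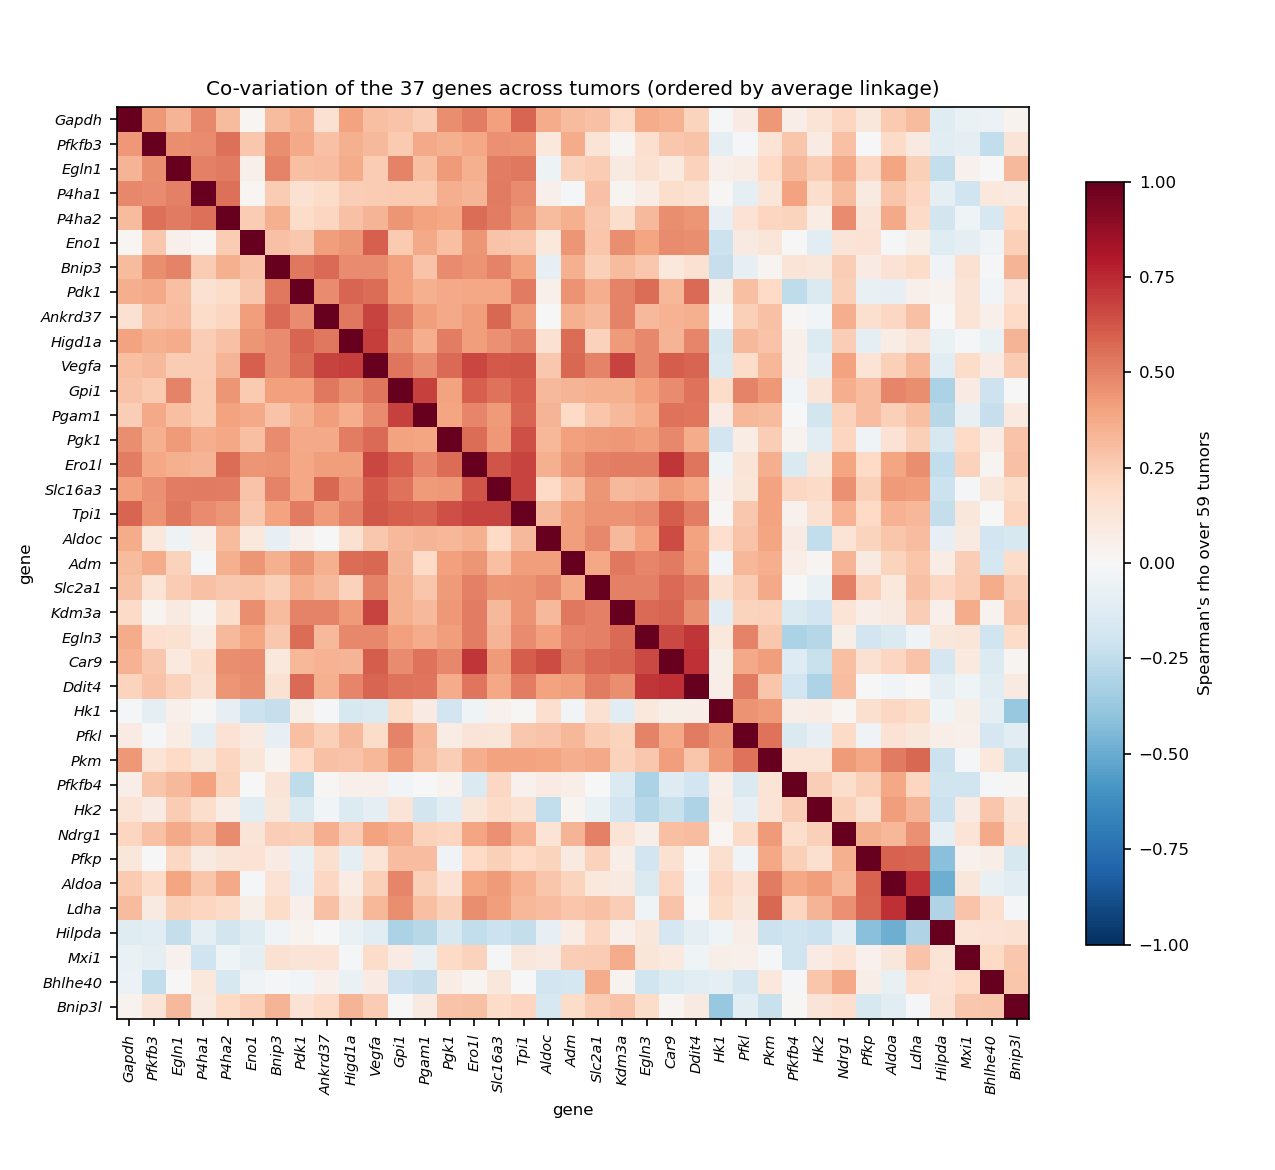
Spearman correlations over 59 tumors between the 37 genes, ordered by average linkage, from -1 (blue) to 1 (red). A block of red holds Egln3, Car9 and Ddit4 (0.715 and 0.733 with Ddit4), a smaller one Pfkp, Aldoa and Ldha (0.728 for Aldoa and Ldha), and Hilpda is blue with most enzymes.

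Of 10 pairs of paralogs or genes of 1 role, 5 were correlated by a two-sided permutation test of 100000 resamples with Benjamini-Hochberg adjustment over the 10 (n = 59 tumors). Car9 with Vegfa had Pearson r = 0.691 and Spearman rho = 0.603 (permutation p = 1e-05 each, the smallest the resamples can give; adjusted p = 3.33e-05 and 0.0001). Within groups r was 0.327 in methylparaben, 0.704 in propylparaben and 0.834 in vehicle (permutation adjusted p = 0.465, 0.0056 and 0.0005), and it was 0.635 without vehicle replicates 7 and 8, the 2 tumors farthest from the median. P4ha1 with P4ha2 had r = 0.559 and rho = 0.550 (permutation p = 1e-05 and 4e-05, adjusted p = 3.33e-05 and 0.0002), with 0.272, 0.648 and 0.751 within methylparaben, propylparaben and vehicle and 0.530 without 2 tumors. Slc2a1 with Slc16a3 had r = 0.543 and rho = 0.438 (permutation p = 1e-05 and 0.0005, adjusted p = 3.33e-05 and 0.00167), with 0.434, 0.492 and 0.658 within the groups and 0.432 without 2 tumors.

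Weaker were Pfkfb3 with Pfkfb4 (r = 0.368, rho = 0.280; permutation p = 0.00325 and 0.0325, adjusted p = 0.00813 and 0.0542; r = 0.317 without 2 tumors) and Bnip3 with Bnip3l (r = 0.354, rho = 0.340; permutation p = 0.00648 and 0.00896, adjusted p = 0.0130 and 0.0224; r = 0.436 without 2 tumors). Within methylparaben, propylparaben and vehicle r was 0.397, 0.270 and 0.558 for Pfkfb3 with Pfkfb4 and 0.138, 0.255 and 0.653 for Bnip3 with Bnip3l. On deposited values in place of log2 values Bnip3 with Bnip3l did not pass (r = 0.211, permutation adjusted p = 0.153). The sensors Egln1 and Egln3 (r = 0.206), the hexokinases (0.069), Pfkl with Pfkp (0.161), Aldoa with Aldoc (0.255) and Pgk1 with Ldha (0.184) did not pass, with permutation adjusted p from 0.088 to 0.591. Without methylparaben replicate 5 and vehicle replicate 17 the value for Aldoa with Aldoc was 0.430 and passed (permutation adjusted p = 0.0018). Without their 2 farthest tumors Pgk1 with Ldha (0.331, adjusted p = 0.0195) and Egln1 with Egln3 (0.284, adjusted p = 0.0411) also passed. The hexokinases (0.045, adjusted p = 0.818) and Pfkl with Pfkp (-0.0017, adjusted p = 0.99) did not.

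Markers of dividing cells were followed by some of the members. Over the 37 members the median Spearman correlation with the mitosis sum across tumors was 0.323, with 21 members over 0.3 and a lowest value of -0.284. How many of all genes pass 0.3 was not computed, so the count marks no trait of the members. Bhlhe40 (-0.254), Hilpda (-0.145) and Bnip3l (-0.026) were among the hypoxia genes below 0. All 20 mitosis genes lay below 0 in methylparaben (2 called by limma) and all 20 in propylparaben (none called), with summed levels of 465 to 1611 in methylparaben (median 823), 521 to 2015 in propylparaben (median 928) and 561 to 2216 in vehicle (median 1074). The 2 called were the cyclin genes Ccna2 and Ccnb1, needed for cells to enter mitosis. They fell in methylparaben by 0.49 ± 0.13 and 0.63 ± 0.17 on the log2 scale (limma adjusted p = 0.0456 and 0.0492). Over all genes 1.32% were called in this comparison. Egln3 correlated with the mitosis sum at r = 0.754 and rho = 0.696 (permutation p = 1e-05 each, adjusted over a family of 16 to 8e-05), within groups at 0.586 in methylparaben, 0.682 in propylparaben and 0.785 in vehicle, and at 0.723 without vehicle replicates 8 and 14. Car9 had r = 0.757 and rho = 0.730 (permutation p = 1e-05 each, adjusted 8e-05), with 0.644, 0.840 and 0.648 within the groups and 0.716 without 2 tumors. Vegfa had r = 0.530 and rho = 0.472 (permutation p = 2e-05 and 0.00021, adjusted p = 0.000107 and 0.00112), with -0.092 in methylparaben, 0.734 in propylparaben and 0.582 in vehicle and 0.462 without 2 tumors. Ldha did not pass (r = 0.173, rho = 0.197, permutation adjusted p = 0.253). Its r was -0.050 in methylparaben, 0.489 in propylparaben (permutation adjusted p = 0.0765) and 0.173 in vehicle. Without 2 tumors it was 0.284 (permutation adjusted p = 0.0636). With the mitosis sum as a covariate Egln3 differed by -0.33 in methylparaben (limma adjusted p = 0.834) and by -0.27 in propylparaben.

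**Figure D5:**
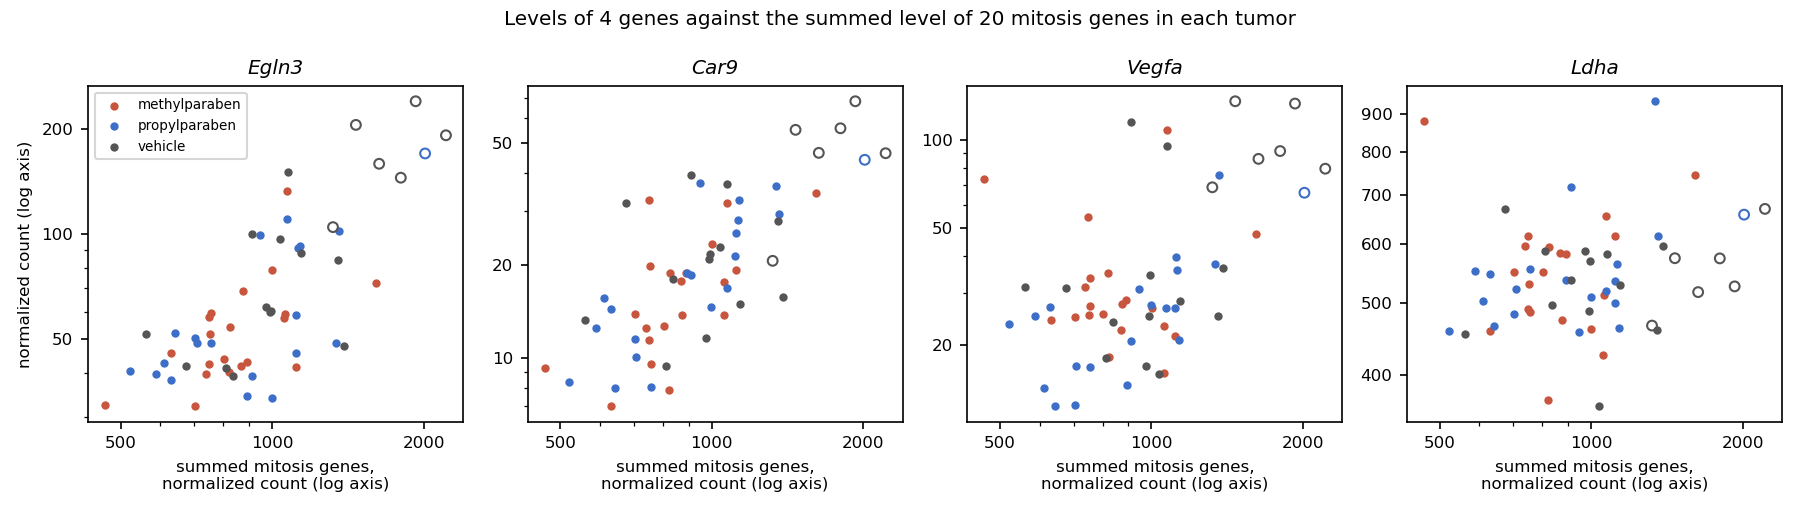
Normalized counts of Egln3, Car9, Vegfa and Ldha (log axis) against the summed level of 20 mitosis genes (log axis) in each of 59 tumors, colored by group, with the 7 libraries at the mitosis end as open circles. Egln3 and Car9 climb with the sum (r = 0.754 and 0.757), while Ldha follows it less over all tumors (r = 0.173).

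Other tissues in the tumor pieces were read from marker lists fixed by symbol, with no list's markers at 0 in every library. Fibroblast sums ran from 1529 to 5001 in methylparaben (median 2667), 971 to 6219 in propylparaben (2938) and 474 to 5352 in vehicle (1859). Adipocyte sums ran from 43.1 to 10525 (464), 31.2 to 2709 (236) and 20.5 to 500.5 (159.9) in the same groups, and skeletal muscle sums from 9.15 to 9162 (272), 7.66 to 896 (184) and 8.09 to 1025 (17.7). All 12 muscle and 11 of 11 tested adipocyte markers lay above 0 in both parabens, and 11 of 12 fibroblast markers did, none of them called by limma. Spearman correlations under -0.3 were found for 20 of the 37 members with the fibroblast sum, 21 with the adipocyte sum and 17 with the macrophage sum, and over 0.3 for 21 with the mitosis sum. Shares of all genes past these bounds were not computed. With 5 tissue sums as covariates Egln3 differed by -0.30 in methylparaben (limma adjusted p = 0.610) and no member was called; the part of these tissues in the differences was not otherwise tested.

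Vessels and red blood cells bear on oxygen supply. Endothelial sums ran from 108 to 405 in methylparaben (median 172), 117 to 240.3 in propylparaben (177) and 107 to 196 in vehicle tumors (157). Egln3 had r = -0.445 and rho = -0.449 with the endothelial sum (permutation p = 0.00045 and 0.00034, adjusted p = 0.0018 and 0.00136), with -0.360 in methylparaben, -0.556 in propylparaben and -0.294 in vehicle, and -0.455 without 2 tumors. Car9 had r = -0.401 and rho = -0.40 (permutation p = 0.00164 each, adjusted p = 0.00525 and 0.00437), with -0.205, -0.579 and -0.255 within the groups and -0.388 without 2 tumors. These values were not particular to endothelium. With the fibroblast, adipocyte and macrophage sums rho was -0.726, -0.719 and -0.639 for Egln3 and -0.564, -0.764 and -0.44 for Car9. It was weaker with the T cell and tumor epithelium sums, at -0.263 and -0.125 for Egln3 and -0.176 and -0.149 for Car9. A relation to vessels apart from the other tissues was not tested. Vegfa, whose product acts on endothelium, did not pass with the endothelial sum (r = -0.139, permutation adjusted p = 0.339). With muscle Egln3 had r = -0.371 (rho = -0.425; permutation p = 0.00414 and 0.00078, adjusted p = 0.0110 and 0.0025), within methylparaben -0.565, propylparaben -0.274 and vehicle -0.225, and -0.332 without 2 tumors.

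Of the positive correlations with other tissues 3 passed, with r from 0.325 to 0.338. Vegfa with the red blood cell sum had r = 0.334 and rho = 0.182 (permutation p = 0.0101 and 0.168, adjusted p = 0.0201 and 0.227), with 0.600 in methylparaben, -0.024 in propylparaben and 0.514 in vehicle. Without vehicle replicates 8 and 14 it was 0.290 (permutation adjusted p = 0.0636). Ldha had r = 0.338 with the endothelial and 0.325 with the muscle sum (rho = 0.147 and 0.248; permutation p = 0.0111 and 0.0113, adjusted p = 0.0201 each). Without methylparaben replicate 5 and propylparaben replicate 15 these were 0.157 and 0.185, so they rest on those tumors. Within methylparaben, propylparaben and vehicle they were 0.618, -0.078 and 0.314 for the endothelial and 0.453, 0.420 and -0.080 for the muscle sum. The other 7 of the 16 relations did not pass, Egln3 and Car9 with red blood cells among them (r = 0.237 and 0.138).

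Genes around the members were read from 9 lists fixed by symbol. Among 16 tested genes of the HIF core none was called in either paraben; Epas1, which encodes HIF-2 alpha, differed by 0.39 ± 0.13 in methylparaben (limma adjusted p = 0.0720) and 0.41 ± 0.13 in propylparaben (adjusted p = 0.0876), with 18 and all 20 of 20 tumors above the vehicle median, and Arnt2 differed by -0.48 in methylparaben and Ep300 by 0.16 in propylparaben. Of 27 other hypoxia targets 3 rose in methylparaben and none passed in propylparaben: Tmem45a, a membrane protein, rose by 0.79 ± 0.17 on the log2 scale (limma adjusted p = 0.0239), Rora, a nuclear receptor of the clock, by 0.55 ± 0.14 (adjusted p = 0.0382) and Anxa2, a membrane-binding protein, by 0.27 ± 0.074 (adjusted p = 0.0488). Their means were 5.48 ± 2.00 in methylparaben and 2.89 ± 1.61 in vehicle for Tmem45a, 125 ± 26 and 90.5 ± 35.8 for Rora, and 316 ± 38.5 and 264 ± 50.1 for Anxa2 (SD, n = 20 and 19), with 18, 19 and 19 of 20 methylparaben tumors above the vehicle median. The share called over all genes was 1.32% in methylparaben and 0.0276% in propylparaben. With the tissue sums or the mitosis sum as covariates, or without the 7 libraries at the mitosis end, no gene was called in methylparaben. Of the 27, 12 lay below 0 and 15 above in methylparaben and 11 and 16 in propylparaben. Fam162a (-0.42) and Zfp395 (0.47) had the smallest p in propylparaben.

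In the list of receptors for VEGF and adrenomedullin, which also holds other VEGF ligands, 10 of 12 tested genes lay above 0 in methylparaben and 9 of 12 in propylparaben, none called. Calcrl, a subunit of the adrenomedullin receptors, differed by 0.45 ± 0.13 in methylparaben (limma adjusted p = 0.0513) and 0.32 ± 0.13 in propylparaben (adjusted p = 0.161). Ramp1, also in the list, differed by 0.37 in methylparaben and the VEGF receptor Flt4 by 0.52 in propylparaben. Of 13 partners of Ddit4, Bnip3 and Bnip3l in the mTORC1 brake and mitophagy none was called; Ddit4l differed by 0.40 ± 0.12 in methylparaben (adjusted p = 0.0570, above the vehicle median in all 20 tumors), Pink1 by 0.33, and in propylparaben Gabarapl1 by 0.31 and Sqstm1 by 0.27. The endothelial sums of the groups are given above, and their part in the values of these receptors was not tested.

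Fuel pathways next to glycolysis gave no call in either paraben. In 13 other glycolysis isozymes Slc2a4, the glucose transporter of muscle and fat, differed by 0.88 ± 0.31 in methylparaben (limma adjusted p = 0.0900) and 0.55 in propylparaben, Pfkm, the muscle phosphofructokinase, by 0.49 in methylparaben and Tigar by -0.24 in propylparaben. In 13 genes of pyruvate entry Pdk3 differed by -0.42 in methylparaben and -0.25 in propylparaben, Pdk2 by 0.35 in methylparaben and Pcx by 0.38 in propylparaben. In 4 genes of gluconeogenesis Fbp1 differed by -1.04 ± 0.34 (limma adjusted p = 0.0750) and -0.89 ± 0.34, and Pck1, also a marker of fat, by 1.89 ± 0.65 and 1.30 ± 0.65, in methylparaben and propylparaben. In 8 genes of the pentose phosphate path Rpe differed by -0.16 and -0.17 in the same order, G6pdx by 0.22 in methylparaben and Pgls by -0.16 in propylparaben. In 14 genes of glycogen and hexosamine Gfpt2 differed by 0.55 and 0.42, Pygm by 1.21 in methylparaben and Gnpnat1 by -0.22 in propylparaben.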

How the data were processed

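The submitters' processing notes name bcl2fastq 2.20.0.422, STAR 2.6.1d, HTSeq 0.10.0 and GRCm38. The sources used here do not give annotation, strand setting, intron definition, library chemistry or normalization tool. The deposited values are a signal, normalized counts per the labels. All of them (100%) were whole multiples of a factor per library within 1e-06 reads, so reads were recovered. No column of values was left unused (0). The 5 HTSeq summary lines stayed out of library sizes and tests; they held 13.7% to 35.5% of reads outside features and 11.0% to 15.8% aligned to several places. Within each treatment group no library was a duplicate of another (lowest chi-square per degree of freedom 2.12 over 9143 genes). Pairs of libraries from different groups were not compared.

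log2(value + 1) was fitted by limma-trend (limma 3.58.1, R 4.3.3) for features with a mean of at least 1, in 1 fit of 59 libraries with a mean per group. Adjustment was Benjamini-Hochberg over all features tested, and a call an adjusted p under 0.05. Fold changes are on that scale, which understates changes of low genes. The gene minus intron test needed a mean of at least 10 in both tables. Members, gene lists, tests and the naming rule were chosen with earlier results of these data known. Full values are given for called members, the 6 smallest p of each comparison and 10 genes set by name, 18 in all; pathway lists give called genes and the 2 smallest p per paraben. Alternatives were pseudocounts of 0.5 and 10, no filter or a mean of at least 10, quantile and median-of-ratios scaling, array weights, a fit of the 2 groups alone, robust empirical Bayes, covariates (5 tissue sums, or the mitosis sum), each library left out, and edgeR 4.0.16 and DESeq2 1.42.0 on recovered reads. Added after seeing the data were the tumor number as covariate, leaving out the 7 or the 5 libraries named in the results, and group means removed in the marker correlations. Correlations used Python 3.11.15 with scipy 1.17.1, numpy 2.4.6 and pandas 2.3.3, and figures matplotlib 3.10.9. Positions come from GENCODE M21 on GRCm38, overlaps from bedtools 2.31.1, copies from blastn 2.17.0 and promoters from RefSeq. On simulated reads the limma fit of methylparaben against vehicle recovered 28% of 100 genes changed by log2 0.4 and 78% of 100 changed by 0.8. It called 0.021% of the unchanged genes. A missing call therefore does not show that a gene is unchanged.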

Additional observations from a re-analysis of the deposited data

How the results depend on the processing

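No paired analysis was possible because replicate numbers here are names given in accession order and mark no shared animal. The count of members called in methylparaben against vehicle was 1 and became 0 with no filter, with only the 2 groups compared, with array weights, with 5 tissue sums, with the mitosis sum and without the 7 or the 5 libraries; it was 3 by edgeR (Car9, Egln3, P4ha2) and 4 by DESeq2 (with Hk2), and 0 to 5 with 1 library left out. In propylparaben against vehicle it was 0, 3 by DESeq2 (Higd1a, Pgam1, Vegfa) and 0 to 4 with 1 library left out. Over all genes the calls in methylparaben were 191, against 25 with no filter, 2 with only the 2 groups, 39 with array weights, 5 without the 5 libraries, 0 with the tissue sums, the mitosis sum or without the 7 libraries, 585 by edgeR and 640 by DESeq2; in propylparaben they were 4, 31 by edgeR and 231 by DESeq2. Counts by introns, by gene minus intron and between the esters stayed at 0 for members under the alternatives run. The cause of these moves was not tested. At 1166500 to 2032790 reads on genes, members with few reads such as Pgk1 are measured least precisely.

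Differences whose sign turned were not called. Methylparaben against vehicle: Bnip3 0.11 (edgeR), 0.14 (DESeq2) and 0.18 (without the 7); Bnip3l 0.026 (tissue sums); Egln1 -0.0069 (quantile), -0.034 (array weights), -0.022 (tissue sums) and -0.062 (without the 5); Ldha -0.00087 (tissue sums); Pdk1 0.0092 (without the 7); Pkm 0.0056 (median of ratios), 0.049 (tissue sums), 0.069 (mitosis sum), 0.0039 (DESeq2) and 0.072 (without the 7); Slc2a1 0.11 (tissue sums), 0.039 (mitosis sum) and 0.13 (without the 7). Propylparaben against vehicle: Adm 0.048 (tissue sums) and 0.030 (without the 7); Bnip3 0.022 (without the 7); Pkm -0.0096 (quantile), -0.028 (array weights), -0.0029 (tumor number), -0.014 (edgeR), -0.0053 (DESeq2) and -0.046 (without the 5); Slc2a1 0.12 (tissue sums), 0.062 (mitosis sum) and 0.15 (without the 7). Propylparaben against methylparaben: Bnip3 0.030 (array weights) and 0.018 (without the 5); Ddit4 -0.020 (array weights), -0.046 (tissue sums), -0.044 (mitosis sum), -0.027 (edgeR and DESeq2), -0.024 (without the 7) and -0.054 (without the 5); Eno1 -0.00064 (pseudocount 10), -0.012 (mitosis sum), -0.027 (edgeR), -0.032 (DESeq2) and -0.011 (without the 7); Ldha 0.020 (quantile), 0.0078 (array weights), 0.00092 (tissue sums) and 0.010 (without the 5); Pdk1 -0.023 (mitosis sum) and -0.020 (without the 7); Pkm -0.011 (tissue sums and mitosis sum), -0.0095 (edgeR), -0.0092 (DESeq2) and -0.016 (without the 7).

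With 1 library left out, results that turned sign in some fit ran from -0.18 to 0.016 for Bnip3, -0.059 to 0.038 for Egln1 and -0.044 to 0.030 for Pkm in methylparaben against vehicle, from -0.0090 to 0.050 for Ldha, -0.039 to 0.030 for Pkm and -0.11 to 0.020 for Slc2a1 in propylparaben against vehicle, and from -0.033 to 0.074 for Ddit4, -0.028 to 0.066 for Eno1, -0.047 to 0.030 for Ldha, -0.030 to 0.055 for Pdk1 and -0.028 to 0.038 for Pkm between the esters. Among correlations, Bnip3 with Bnip3l no longer passed on deposited values (r = 0.211, permutation adjusted p = 0.153), nor did Vegfa with red blood cells (0.255, adjusted p = 0.0799) or Ldha with endothelium (0.288, adjusted p = 0.0542) with the marker list as a mean of standardized values. Egln3 with red blood cells passed with group means removed (0.291, adjusted p = 0.0414), and Hk1 with Hk2, which did not pass, turned sign on deposited values (-0.035).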

Other observations

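By Spearman correlation with the mean of the 37 members over 59 tumors, the most alike of 9111 other genes were Ppid (0.680), Cnbp (0.662), Ckmt1 (0.655), Bsg (0.651), Ppif (0.648), Arhgef28 (0.643), Chchd4 (0.635), Smox (0.634), Homer1 (0.632) and Apln (0.628). Bsg encodes the partner that carries lactate transporters to the cell surface, Ckmt1 a mitochondrial creatine kinase and Apln a peptide that acts on vessels. Limma called none of these 10 in either paraben; Apln differed by -0.56 in methylparaben and -0.63 in propylparaben (adjusted p = 0.197 and 0.187), and Chchd4 by -0.28 and -0.33 (adjusted p = 0.0753 and 0.0774). Most opposite were Ikzf1 (-0.671), Snhg18 (-0.671), Crispld1 (-0.652), Snord13 (-0.649) and Zfp608 (-0.642). Ikzf1 is a transcription factor of lymphocytes.

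Single tumors carried many of the extremes. Methylparaben replicate 20 was the highest tumor of 10 members, with 286 normalized counts of Ndrg1 and 28.1 of Slc16a3. Methylparaben replicate 5 was the highest of 6, with 857 normalized counts of Aldoa and 88.3 of Egln1, and the lowest of 2, Ddit4 and Hilpda. Vehicle replicate 8 was the highest of 5, Egln3 and Car9 among them, and vehicle replicate 4 was the lowest of 6.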
